A study of Rattus norvegicus with 56 samples.

Results

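Haemoglobin and haem synthesis genes were followed in the rat brain through 5 genes, Hbb-b1, Hbb, Hbe2, Hbg1 and Alas2. They were chosen as the non-control probes of the array whose RefSeq accession, with its version dropped, maps to 1 of these symbols. This gave 6 probes, 2 for Hbb-b1 and 1 for each of the other genes, out of 45598 probes and 16581 named genes. All 6 passed the filter for testing, which kept a probe that at least 3 of the 24 animals of a region showed well above background, and stood among 32503 probes tested in the hippocampus and 32613 in the parietal cortex. Both Hbb-b1 probes are named below by their RefSeq transcript, NM_198776 and XM_006229913.

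The animals were male Long-Evans rats that received intermittent theta burst stimulation (iTBS), in which a magnetic coil over the head delivers short patterned bursts, or a sham procedure, and were killed 48 h later. Y_Sham (4 rats) and Y_iTBS (4 rats) were 6 to 7 months old, and all other groups were 26 to 27 months old. Aged rats that had learned a water maze as well as young rats formed the aged unimpaired groups AU_Sham (4 rats) and AU_iTBS (5 rats), and those that had learned it less well formed the aged impaired groups AI_Sham (4 rats) and AI_iTBS (3 rats). Every rat, sham or stimulated, was lightly anaesthetised with isoflurane and sedated with dexmedetomidine, which was then reversed with Antisedan. The cortex and hippocampus under the centre of the coil were dissected and frozen, and flushing of the vessels is not mentioned in the sources used here.

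Haemoglobin is a tetramer of alpha-type and beta-type globin chains, each of which holds a haem group that binds oxygen. Hbb and Hbb-b1 encode adult beta-type chains, Hbe2 and Hbg1 belong to the embryonic-type genes of the same cluster, and Alas2 encodes the erythroid form of 5-aminolevulinate synthase, the first enzyme of haem synthesis. Red blood cells are the classical source of these RNAs, and whole brain tissue also holds vessels and the blood inside them. In tissue of this kind fewer cells of a type and less RNA per cell cannot be told apart.

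The promoters of the 2 adult beta-type genes and of Alas2 are shown because these genes varied together between animals. The sequences run 5′ to 3′ up to the base before the transcription start, from RefSeq on the GRCr8 assembly. Hbb lies on the minus strand at chr1:167663722-167663841, Hbb-b1 on the minus strand at chr1:167643521-167643640, and Alas2 on the plus strand at chrX:22895300-22895449. Capitals mark, on either strand, the letters CACCC and the CCAAT box, the TATA-like letters ATAAA, and in the promoter of Alas2 the letters AGATAA.
Hbb: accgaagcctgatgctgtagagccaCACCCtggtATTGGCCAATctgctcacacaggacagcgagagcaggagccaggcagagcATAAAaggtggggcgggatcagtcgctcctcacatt
Hbb-b1: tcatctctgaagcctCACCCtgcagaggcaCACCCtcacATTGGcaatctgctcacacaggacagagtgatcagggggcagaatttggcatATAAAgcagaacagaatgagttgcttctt
Alas2: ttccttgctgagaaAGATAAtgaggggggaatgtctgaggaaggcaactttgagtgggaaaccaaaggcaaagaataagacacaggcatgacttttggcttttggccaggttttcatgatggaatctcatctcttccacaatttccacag

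Counted back from the base before the start as -1, CACCC began at -95 in Hbb and at -105 and -90 in Hbb-b1, with a further copy of it outside the printed stretch. The CCAAT box followed within a few bases, on both strands in Hbb and on the opposite strand in Hbb-b1, and ATAAA began at -36 and -29. In Alas2 none of these 3 was found within 250 bases, and AGATAA, letters that GATA factors bind, began at -136. These letters are common, since CACCC occurred in 49.2% of 33469 rat promoters of 250 bases, CCAAT in 34%, ATAAA in 39.3% and AGATAA in 10.3%. Over 110 aligned bases the Hbb and Hbb-b1 stretches were identical at 88, with 20 gap positions. RNAs of the beta-type genes are also related in sequence, to a degree that was not measured here, and probe sequences were not used. A beta-type probe may therefore have caught RNA of its neighbours, and how the signal divides among these genes is uncertain. Hbe2 and Hbg1 are named here without a promoter.

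Of 56 arrays, 48 were the first array of a region of a rat, 7 were technical repeats and 1 hippocampus array, whose labels disagree on its group, could not be assigned. Between 59.3% and 69.7% of probes were well above background on an array (median 65.1%), and no member spot was saturated. The number of arrays limits the precision. Both regions were scanned on a first date in 15 rats and on later dates in 9 rats, with every group in each of these sets, and in 8 of the 9 later rats the regions were scanned on different later dates. Y_iTBS 1, AU_Sham 1, AI_Sham 1 and AI_iTBS 1 were the only later rats of their groups. Later-date differences that involve these groups rest on single rats. No rat had both regions on the same slide, and 5 of the 7 slides of first arrays held a single region. The labels name separate rats, so p-values measure the spread between animals. A repeat entered the mean of its animal, except the cortex repeat of AI_iTBS 2. Over the 500 tested probes that varied most it correlated at r = -0.01 with its own first array and at 0.53 with AI_Sham 2, and its Hbb-b1 (NM_198776) level of 7.34 stood beside 8.32 on the first array and 7.44 in AI_Sham 2.

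All levels below are normalised log2 signals, that is the z-score of a probe on its array multiplied by the mean array SD of 4.08, so that 0 is the mean of an array. Levels of different probes are not compared with each other, since probes differ in brightness.

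Hbb-b1, read by its NM_198776 probe, was well above background on all 56 arrays. In the hippocampus its levels were 7.91, 7.39, 7.63 and 7.98 in Y_Sham and 7.65, 8.27, 7.78 and 8.08 in Y_iTBS. They were 8.17, 7.83, 7.58 and 8.45 in AU_Sham and 7.99, 8.28, 7.78, 7.61 and 7.81 in AU_iTBS, and 8.38, 7.62, 8.54 and 8.64 in AI_Sham and 8.29, 7.76 and 7.32 in AI_iTBS. The groups overlapped throughout, and the ends of the range, AI_iTBS 3 and AI_Sham 4, lay 2.51-fold apart. In the parietal cortex the levels were 8.27, 7.44, 8.94 and 8.18 in Y_Sham and 7.90, 8.50, 7.89 and 8.15 in Y_iTBS. They were 8.45, 8.29, 8.60 and 8.76 in AU_Sham and 8.26, 7.97, 7.81, 8.22 and 8.29 in AU_iTBS, and 8.30, 7.44, 8.50 and 9.17 in AI_Sham and 8.19, 8.32 and 7.53 in AI_iTBS. AI_Sham spanned the whole cortex range, from AI_Sham 2 to AI_Sham 4, which is 3.33-fold. Its XM_006229913 probe gave 6.67 to 8.10 in the hippocampus and 6.70 to 8.58 in the cortex, and the order of its 6 group means was that of the NM_198776 probe in both regions.

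Hbe2, an embryonic-type gene by name, was also well above background on every array of these adult rats. In the hippocampus it read 6.43, 5.71, 6.05 and 6.53 in Y_Sham, 6.14, 6.65, 6.14 and 6.55 in Y_iTBS, and 6.69, 6.21, 5.99 and 6.45 in AU_Sham. It read 6.37, 6.61, 6.35, 5.97 and 6.21 in AU_iTBS, 6.73, 6.05, 6.92 and 7.11 in AI_Sham, and 6.71, 6.23 and 5.63 in AI_iTBS. As for Hbb-b1, AI_iTBS 3 was the lowest and AI_Sham 4 the highest animal. In the cortex it ranged from 5.64 in AI_Sham 2 to 7.73 in AI_Sham 4, which is 4.24-fold, with group means from 6.40 ± 0.50 in AI_iTBS (SD, n = 3) to 6.92 ± 0.21 in AU_Sham (SD, n = 4).

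Hbb varied more between animals. In the hippocampus its levels were 2.73, 2.01, 2.92 and 3.53 in Y_Sham and 2.58, 3.86, 3.12 and 3.90 in Y_iTBS. They were 2.17, 3.01, 3.02 and 4.46 in AU_Sham and 2.92, 2.93, 2.85, 3.00 and 3.18 in AU_iTBS, and 3.41, 3.11, 3.77 and 3.90 in AI_Sham and 2.75, 3.15 and 2.81 in AI_iTBS. The 5 AU_iTBS rats lay within 0.33 of each other and the 4 AU_Sham rats within 2.29, and neighbouring groups in the order of means overlapped. In the cortex the levels were 3.00, 2.01, 4.04 and 3.02 in Y_Sham and 2.70, 3.89, 2.91 and 3.12 in Y_iTBS. They were 4.00, 3.69, 3.86 and 3.83 in AU_Sham and 2.71, 4.55, 3.63, 3.23 and 3.94 in AU_iTBS, and 3.05, 2.24, 3.72 and 4.54 in AI_Sham and 2.15, 3.33 and 2.58 in AI_iTBS. Here AU_Sham was the tight group, spanning 0.31. From Y_Sham 2 to the highest animal the span was 5.47-fold in the hippocampus and 5.84-fold in the cortex.

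Alas2 read 1.28, 0.63, 1.20 and 1.61 in the hippocampus of Y_Sham, and 1.05, 1.84, 1.17 and 1.68 in that of Y_iTBS. It read 1.48, 1.24, 1.00 and 2.26 in AU_Sham and 1.10, 1.18, 0.89, 1.14 and 1.30 in AU_iTBS, and 1.33, 1.43, 1.71 and 1.83 in AI_Sham and 1.39, 0.89 and 0.30 in AI_iTBS. The stimulated aged rats sat low, yet AU_iTBS overlapped AU_Sham and AI_iTBS 1 lay within the range of AI_Sham. In the cortex it read 1.57, 0.36, 2.07 and 2.37 in Y_Sham and 0.95, 1.86, 0.91 and 1.24 in Y_iTBS. It read 1.88, 1.51, 1.80 and 1.93 in AU_Sham and 1.71, 1.85, 1.53, 1.21 and 2.01 in AU_iTBS, and 2.00, 0.67, 1.95 and 2.88 in AI_Sham and 1.58, 1.10 and 0.54 in AI_iTBS. All groups overlapped in the cortex, where the lowest and highest animals were 5.75-fold apart.

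Hbg1 behaved differently and was close to the background of the arrays. Only 30 of 56 arrays showed it well above background, in 17 of 24 animals in the hippocampus and in 9 of 24 in the cortex. In the hippocampus it read -2.71, -1.97, -2.52 and -2.31 in Y_Sham, where all 4 animals were well above background, and -2.23, -2.93, -2.87 and -2.39 in Y_iTBS, where 2 of 4 were. The 4 AU_Sham rats read -2.47, -1.66, -2.50 and -2.56, the AU_iTBS rats -2.50, -2.64, -2.44, -2.98 and -2.47, the AI_Sham rats -2.76, -2.68, -1.85 and -2.74 and the AI_iTBS rats -2.44, -2.66 and -2.67. In the cortex it ran from -4.28 in AI_Sham 3 to -1.91 in Y_Sham 1, and it was not well above background in any of the 4 Y_iTBS rats. Cortex groups overlapped, with 4 of 5 AU_iTBS rats but 1 of 4 AU_Sham and 1 of 4 AI_Sham rats well above background. These cortex counts followed the scan date. Of the first-date rats only AU_iTBS 4 was well above background, and of the later rats only Y_iTBS 1 was not. The mean cortex level was -3.23 in the 15 first-date rats and -2.41 in the 9 later rats, a difference of 0.83.

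**Figure D1:**
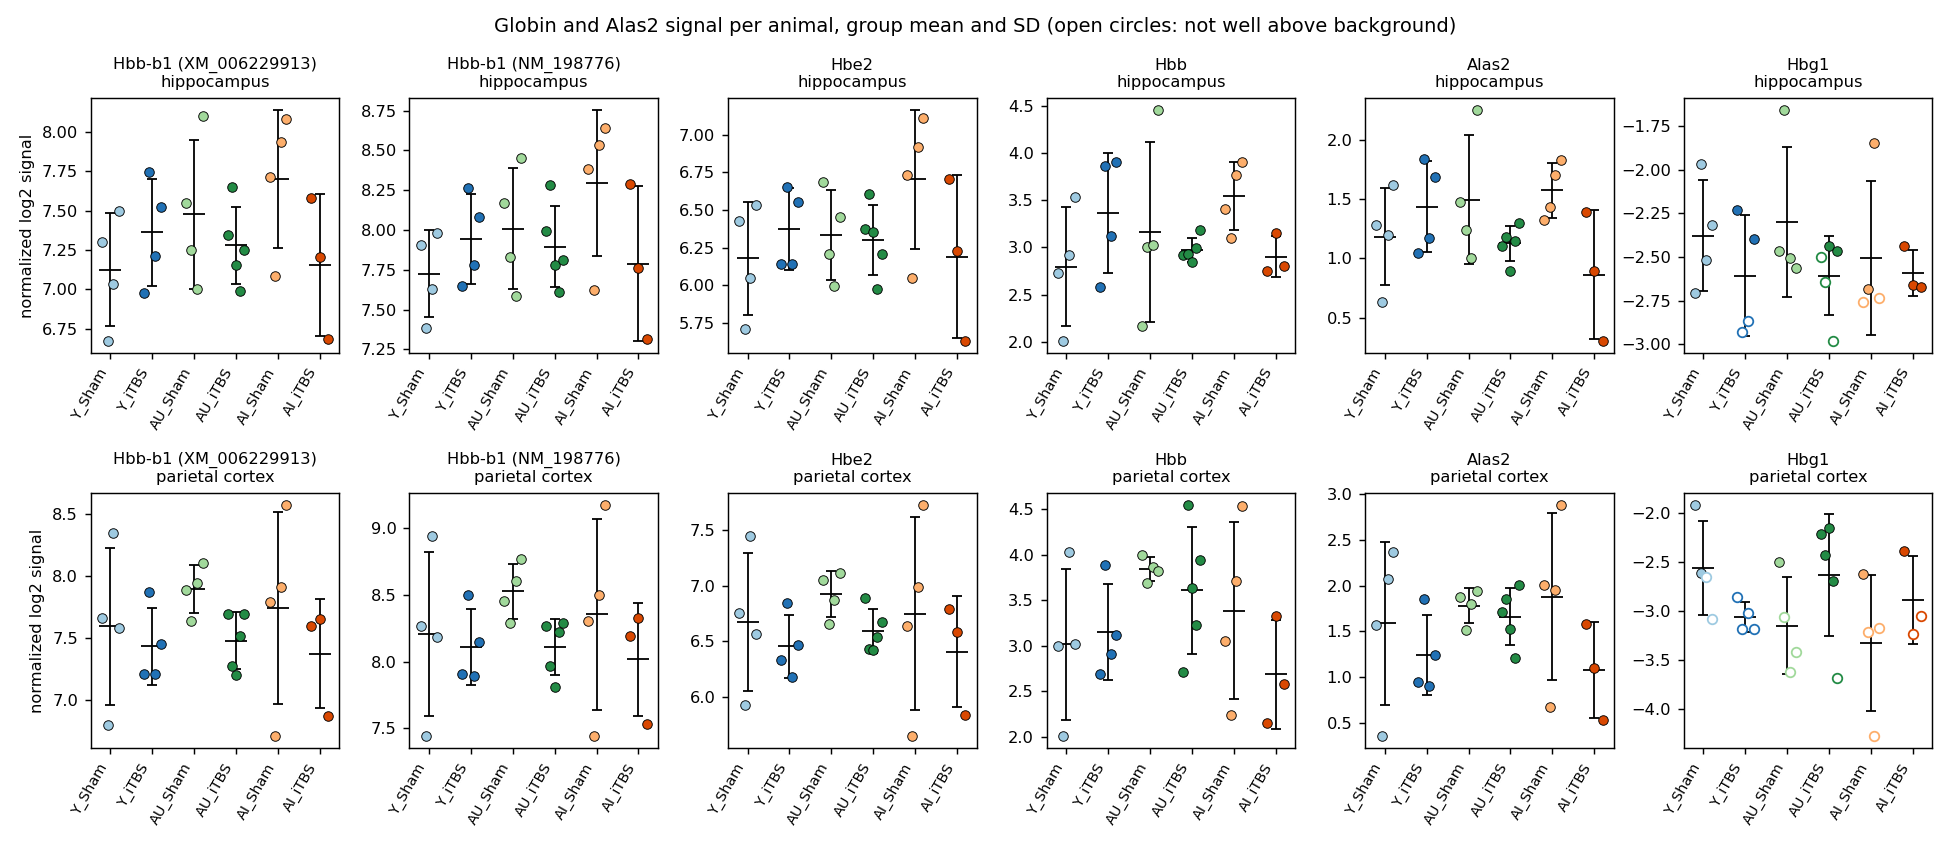
Normalised log2 signal (y axis) of each member probe in each rat by group, hippocampus above and parietal cortex below, with the group mean and SD; open circles mark animals not well above background. The groups overlap for nearly all probes, and Hbg1 is the only probe with open circles, 7 of 24 animals in the hippocampus and 15 of 24 in the cortex.

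The main question of the design was whether stimulation shifted these genes 48 h later. None of the 6 probes passed an adjusted p of 0.05 for iTBS against sham in young, AU, AI or all aged rats in either region (limma with Benjamini-Hochberg adjustment over all tested probes). Over all probes 0% passed in each of these comparisons, except AI rats in the cortex, where 0.00613% did. At an unadjusted p under 0.05 the members that passed were 0 of 6 in young, 0 of 6 in AU, 1 of 6 in AI and 1 of 6 in aged rats in the hippocampus, against 4.51%, 2.29%, 1.95% and 2.48% of all probes. In the cortex the count was 0 of 6 in each, against 2.7%, 8.38%, 4.09% and 2.92%. A selection rule written here after the description in the methods, which joins an analysis of variance with a z-ratio, picked 0 members in all 8 comparisons as applied to these values. It was not run in the program used by the authors.

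The 1 probe behind both hippocampal counts was Alas2. In aged rats the 8 stimulated animals ranged from 0.30 to 1.39 and all lay below the sham mean of 1.53, while the 8 sham animals ranged from 1.00 to 2.26 and overlapped them. The difference of log2 signal, iTBS minus sham, was -0.54 (SE 0.19, 95% interval -0.93 to -0.15, n = 8 and 8), with an unadjusted limma p of 0.0095 and an adjusted p of 0.978. It was -0.67 among rats of the first scan date and -0.18 among later ones. In AI rats alone it was -0.71 (SE 0.28, n = 3 and 4), with an unadjusted limma p of 0.021 and an adjusted p of 1.00. Among later AI rats it was 0.06, which is AI_iTBS 1 minus AI_Sham 1.

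The other probes, apart from Hbg1, were on average lower in stimulated aged rats by amounts that did not pass the test. For Hbb the aged difference was -0.42 in the hippocampus (95% interval -0.98 to 0.15, all 8 iTBS rats below the sham mean) and -0.47 in the cortex (95% interval -1.15 to 0.22). For Hbb-b1 (NM_198776) it was -0.31 in the hippocampus (interval -0.67 to 0.05) and -0.38 in the cortex (interval -0.83 to 0.08, all 8 iTBS rats below the sham mean). For Hbe2 it was -0.27 (interval -0.64 to 0.10) and -0.34 (interval -0.84 to 0.17). Alas2 in the cortex gave -0.46 (interval -1.06 to 0.14). The median over all probes tested was near 0 in both regions, -0.0007 in the hippocampus and 0.0092 in the cortex. The signals of these 5 probes varied together from animal to animal, so their shared sign is not 5 separate observations.

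In young rats the hippocampal differences of the same 5 probes were above 0, from 0.19 for Hbe2 to 0.57 for Hbb, and none passed the test. Hbb in Y_iTBS averaged 3.37 ± 0.64 against 2.80 ± 0.63 in Y_Sham (SD, n = 4 each), and its interval ran from -0.22 to 1.35. In the cortex of young rats Hbb-b1 (NM_198776) differed by -0.10, Hbe2 by -0.22, Alas2 by -0.35 and Hbb by 0.14, all with intervals across 0. Each of these cortex values except that of Alas2 turned its sign when Y_Sham 2, Y_Sham 3 or Y_iTBS 2 was left out.

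**Figure D2:**
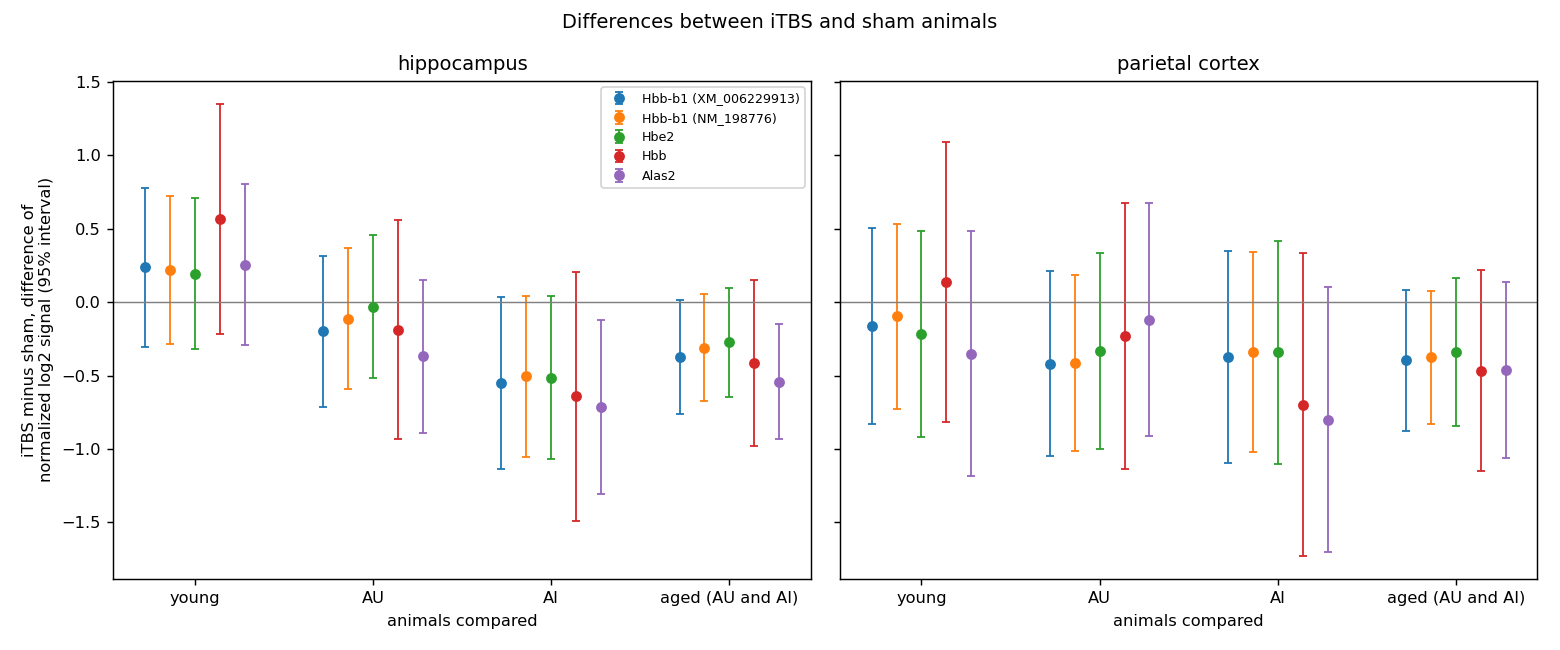
Difference of normalised log2 signal between iTBS and sham rats (y axis, points with 95% intervals from limma) for the 5 probes other than Hbg1 in young, AU, AI and all aged rats, hippocampus left and cortex right. The young hippocampus points lie above 0 and the aged points below it, and among the aged rats of both regions the intervals that leave out 0 are those of Alas2 in the hippocampus, in AI and in all aged rats.

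Whether the response differed with age was tested itself. In the hippocampus 0 of 6 probes passed the adjusted test for the aged minus young difference of iTBS effects, as did 0% of all probes, and 2 of 6, Hbb and Alas2, had an unadjusted p under 0.05, as did 4.29% of all probes. For Hbb the aged effect was lower than the young effect by -0.98 (SE 0.46, 95% interval -1.95 to -0.01, limma adjusted p = 0.801), and it was -0.91 within the first scan date and -0.17 among later rats. For Alas2 it was -0.80 (SE 0.32, 95% interval -1.47 to -0.12, limma adjusted p = 0.801), with -0.83 and -0.27 within those dates. Hbb-b1 (NM_198776) gave -0.53 and Hbe2 -0.47, with intervals across 0. In the cortex 0 of 6 passed, against 0% of all probes, and Hbg1 alone had an unadjusted p under 0.05, as did 3.21% of all probes. For the AI minus AU difference of effects, 0 of 6 passed in either region, against 0% of all probes in the hippocampus and 0.0123% in the cortex, and 0 of 6 had an unadjusted p under 0.05, against 1.71% and 8.74%. The region difference of the effect passed for 0 of 6 probes in young and in aged rats, again beside 0% of all probes, and 0 of 6 had an unadjusted p under 0.05, beside 2.65% and 2.29% of all probes.

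Among sham rats alone, age and maze performance were compared. For aged minus young, 0 of 6 probes passed in either region, beside 0.00308% of all probes in the hippocampus and 0.104% in the cortex. Unadjusted p was under 0.05 for 0 of 6 in the hippocampus and for Hbg1 alone in the cortex, while 8.18% and 9.46% of all probes were under it. Hbg1 was well above background there in 2 of 4 young and 2 of 8 aged sham rats, which were the sham rats of the later scan dates. The differences of the other 5 probes were above 0 in both regions. Hbb was 0.56 higher in aged sham rats in the hippocampus (95% interval -0.12 to 1.24) and 0.60 in the cortex (interval -0.23 to 1.43). Hbb-b1 (NM_198776) was 0.43 higher in the hippocampus (interval -0.01 to 0.86, 6 of 8 aged rats above the young mean) and 0.23 in the cortex (interval -0.31 to 0.78). Without Y_Sham 2, the animal with the lowest Hbb in both regions, the cortex differences of Hbb-b1 (NM_198776), Hbe2 and Alas2 went below 0, to -0.02, -0.08 and -0.17. For AI against AU sham rats 0 of 6 passed, beside 0% of all probes in each region, and 0 of 6 had an unadjusted p under 0.05, beside 4.05% of all probes in the hippocampus and 6.44% in the cortex.

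Levels were also compared between the regions of the same rats, which lay on different slides. In the 12 sham rats 5 of 6 probes passed the adjusted test for hippocampus minus cortex, in a setting where 35.9% of 33770 probes passed, 19.2% higher and 16.7% lower in the hippocampus. Hbb-b1, Hbe2 and Alas2 were lower in the hippocampus and Hbg1 was higher. The hippocampus minus cortex difference of Hbb-b1 (NM_198776) was -0.35 (SE 0.11, 95% interval -0.57 to -0.13, limma adjusted p = 0.013), with 9 of 12 rats lower in the hippocampus, from -1.31 in Y_Sham 3 to 0.18 in AI_Sham 2. The XM_006229913 probe gave -0.31 (adjusted p = 0.030, 10 of 12 rats). For Hbe2 the difference was -0.38 (SE 0.11, interval -0.59 to -0.16, limma adjusted p = 0.0079), with 10 of 12 rats lower. For Alas2 it was -0.33 (SE 0.13, interval -0.60 to -0.07, limma adjusted p = 0.048), with 9 of 12 rats lower, and the call was lost in 20 of 24 fits that left out 1 rat. Hbb did not pass, at -0.25 (interval -0.64 to 0.14, limma adjusted p = 0.327), with 6 of 12 rats on each side and single rats from -1.83 in AU_Sham 1 to 0.86 in AI_Sham 2.

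Hbg1 was 0.62 higher in the hippocampus of sham rats (SE 0.19, interval 0.22 to 1.01, limma adjusted p = 0.015), in 10 of 12 animals. Its level was -2.39 against -3.01, both near background, where it was well above background in 10 of 12 hippocampi and 4 of 12 cortices. The largest single difference was 2.43 in AI_Sham 3, the rat with the lowest cortex and second highest hippocampus level. With normexp background correction the difference was 0.08, and among rats of the later scan dates it was -0.06 against 0.90 in the first.

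The region calls depended on the slide, the scan date and single rats. With the slide as a random block in a fit of both regions, 1 of 6 probes passed, Hbe2 at -0.40 (limma adjusted p = 0.045), while 7753 of 33770 probes passed. The differences of the others kept their direction, at -0.38 for Hbb-b1 (NM_198776, limma adjusted p = 0.055), -0.34 for its XM_006229913 probe (adjusted p = 0.107), -0.35 for Alas2 (adjusted p = 0.171) and 0.59 for Hbg1 (adjusted p = 0.089). Within the 5 slides that held a single region, region and slide cannot be told apart, nor can region and scan date in nearly all later rats. Among first-date rats 3 of 6 probes passed and among later rats 0 of 6. The first-date and later differences of Hbb-b1 (NM_198776) were -0.48 and -0.14, those of Hbe2 -0.49 and -0.18, and those of Alas2 -0.41 and -0.36. Leaving out Y_Sham 3, AU_Sham 3 or AI_Sham 4 each left 3 calls. Over all 24 rats 5 of 6 probes again passed, beside 49.4% of all probes, and the differences were -0.28 for Hbb-b1 (NM_198776), -0.29 for Hbe2, -0.26 for Alas2, 0.44 for Hbg1 and -0.16 for Hbb, which did not pass (limma adjusted p = 0.346). Markers of other cells also differed between regions of sham rats in the fit without the slide. In that fit 16.7% of all probes passed as lower in the hippocampus and 19.2% as higher. Of 16 endothelial and mural markers 6 passed as lower in the hippocampus and 0 as higher (median -0.25), with Pecam1 at -0.42, Tek at -0.44 and the smooth muscle gene Myh11 at -0.75. Of 11 choroid plexus markers 8 passed as higher (median 1.35), with Ttr at 1.90, and of 9 erythrocyte markers 1 was higher and 2 lower. The part of these cells in the region difference of the globins was not tested.

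**Figure D3:**
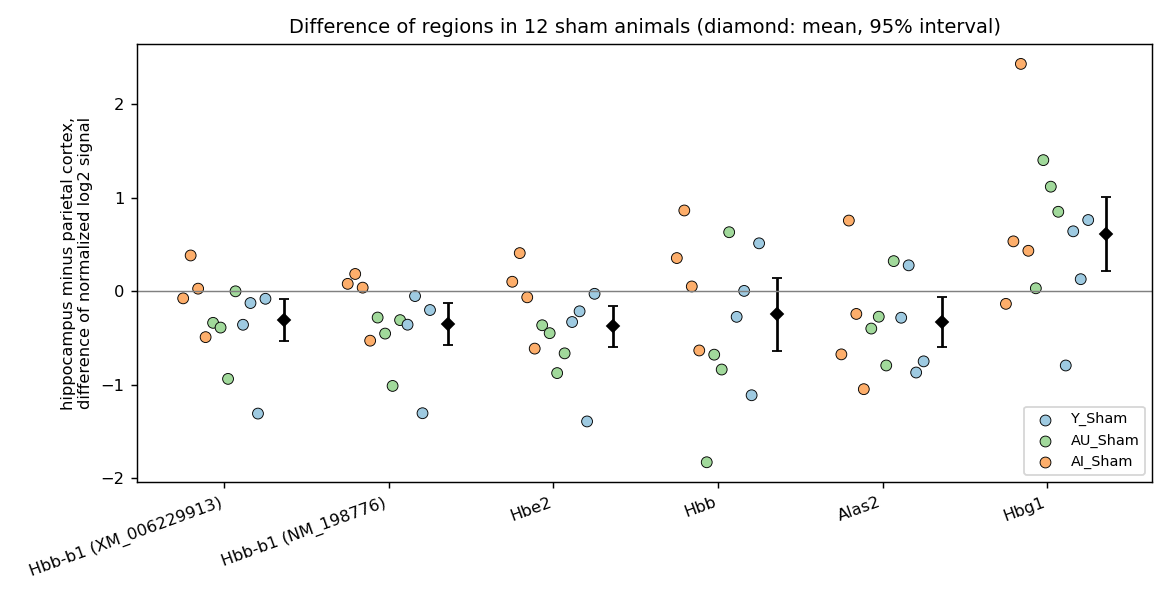
Hippocampus minus cortex difference of normalised log2 signal (y axis) of each member probe in each of the 12 sham rats, with the mean and its 95% interval from limma as a diamond and bar. The intervals of both Hbb-b1 probes, Hbe2 and Alas2 lie below 0, that of Hbg1 lies above 0, and that of Hbb spans 0.

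Levels in the 2 regions of a rat were correlated by Pearson r for Hbb-b1, Hbe2 and Alas2, and by Spearman rho for Hbe2 and Alas2. Pearson r between hippocampus and cortex over the 24 rats was 0.59 for Hbb-b1 (Spearman rho 0.47), 0.62 for Hbe2 (rho 0.51) and 0.63 for Alas2 (rho 0.61). The adjusted permutation p was 0.0076, 0.0049 and 0.0043 in that order for Pearson r, and 0.058, 0.043 and 0.0074 for rho. These were 3 of a family of 43 relations, over which p-values were adjusted. The permutation tests reported here were two-sided and drew 100000 resamples, except that tests over the 9 later rats took all orders of the rats. For Hbb r was 0.38 (rho 0.38, adjusted permutation p = 0.145 and 0.140), and for Hbg1 it was -0.23 (rho -0.05, adjusted permutation p = 0.462 and 0.883). Without the 2 rats farthest from the median in the hippocampus, r was 0.47 for Hbb-b1, 0.41 for Hbe2 (permutation p = 0.060), 0.58 for Alas2, 0.22 for Hbb and 0.08 for Hbg1. Within the first scan date r was 0.60 for Hbb-b1, 0.60 for Hbe2, 0.59 for Alas2 and 0.37 for Hbb (15 rats), and among later rats it was 0.76, 0.78, 0.80 and 0.20 (9 rats). With group means removed it was 0.60, 0.69, 0.65 and 0.42. Both regions of a rat share the animal and the dissection, and in the 15 first-date rats also the scan date.

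**Figure D4:**
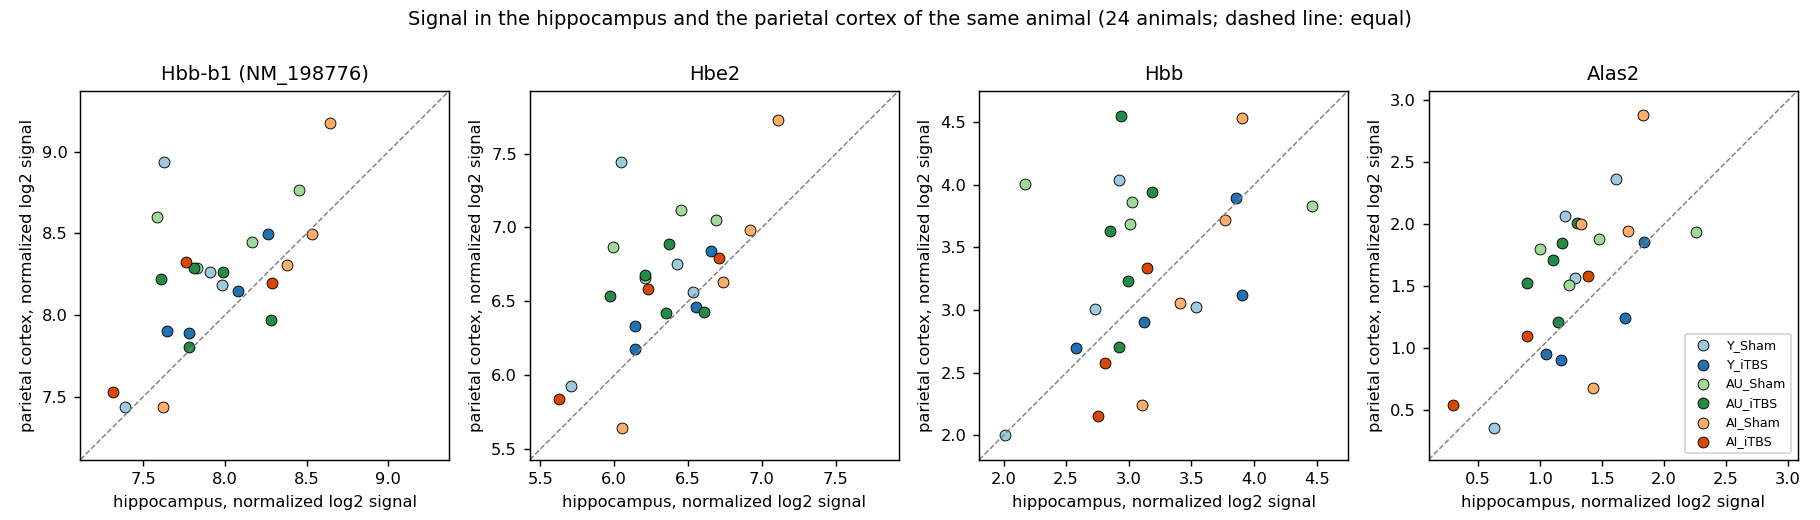
Level in the parietal cortex (y axis) against the level in the hippocampus (x axis) of the same rat for Hbb-b1 (NM_198776), Hbe2, Hbb and Alas2, in normalised log2 signal, coloured by group, with a dashed line of equal level. For Hbb-b1, Hbe2 and Alas2 rats low in one region tend to be low in the other (r = 0.59 to 0.63), and most points lie above the line, while Hbb scatters more widely (r = 0.38).

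Within a region, all pairs among Hbb-b1, Hbe2, Hbb and Alas2 varied together, and 12 of 12 such pairs had an adjusted permutation p under 0.05 for Pearson r. For rho the pairs of Hbb with Hbb-b1 and with Hbe2 in the hippocampus were above it, at 0.053 and 0.101. Hbb-b1 and Hbe2 were the closest, at r = 0.95 in the hippocampus and 0.97 in the cortex (rho 0.95 and 0.92). Here the permutation p of 1e-05 was the smallest that the resamples can give, and the adjusted p was 0.00011. How far an RNA read by both probes adds to this r was not tested. Alas2, on another chromosome, followed Hbb-b1 at r = 0.79 in the hippocampus and 0.83 in the cortex (rho 0.77 and 0.74, adjusted permutation p = 0.00011 and 0.00017). It followed Hbb at 0.75 and 0.71 (rho 0.64 and 0.68, adjusted permutation p = 0.00036 and 0.00057), and Hbe2 at 0.73 and 0.85 (rho 0.72 and 0.77, adjusted permutation p = 0.00037 and 0.00011). Without the 2 farthest rats r of Alas2 with Hbb-b1 was 0.76 and 0.75, and with Hbb 0.60 and 0.67. Among the 9 later rats Alas2 and Hbb had r = 0.34 in the hippocampus and 0.61 in the cortex, against 0.89 and 0.82 in the first date. Members share the array as well as the animal. Over all rats Hbg1 had r from -0.25 to -0.02 with the others in 8 pairs and no adjusted permutation p below 0.454. Among the 9 later rats its hippocampal r was -0.80 with Hbb-b1, -0.83 with Hbe2, -0.77 with Hbb and -0.71 with Alas2 (permutation p of 0.0083, 0.0082, 0.018 and 0.032, not adjusted), while it was 0.04 to 0.22 in the first date and 0.15 to 0.39 among later rats in the cortex.

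Hbb tracked Hbb-b1 less closely, at r = 0.61 in the hippocampus and 0.70 in the cortex (rho 0.49 and 0.71, adjusted permutation p = 0.0050 and 0.00057). Without the 2 farthest rats these were 0.51 and 0.59. The relation was tight in the first scan date, at 0.89 and 0.94 over 15 rats, and looser among the 9 later rats, at 0.62 and 0.28. Hbb was also lower on the later dates, by 0.68 in the hippocampus (mean 2.71 against 3.38) and by 0.37 in the cortex (3.09 against 3.46), whereas the NM_198776 probe of Hbb-b1 was at 7.98 against 7.93 and 8.07 against 8.32. Hbb with Hbe2 showed the same split, with r of 0.78 and 0.94 in the first date against 0.58 and 0.26 later, and 0.49 and 0.67 over all rats (rho 0.41 and 0.61, adjusted permutation p = 0.039 and 0.00095). Without the 2 farthest rats the latter were 0.42 (permutation p = 0.050) and 0.54. The part of the scan date in the level of Hbb was not tested. The share of probes well above background on an array had no adjusted permutation p under 0.05 with any member, with r from -0.38 to 0.10 for the 4 genes other than Hbg1. Within the first scan date these r ran from -0.25 to 0.18. Among later rats they ran from -0.70 for Hbb-b1 in the hippocampus (permutation p = 0.041, not adjusted) to 0.48 for Hbb in the cortex. With group means removed Hbb-b1 in the cortex had r = -0.45 (permutation p = 0.027, not adjusted).

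**Figure D5:**
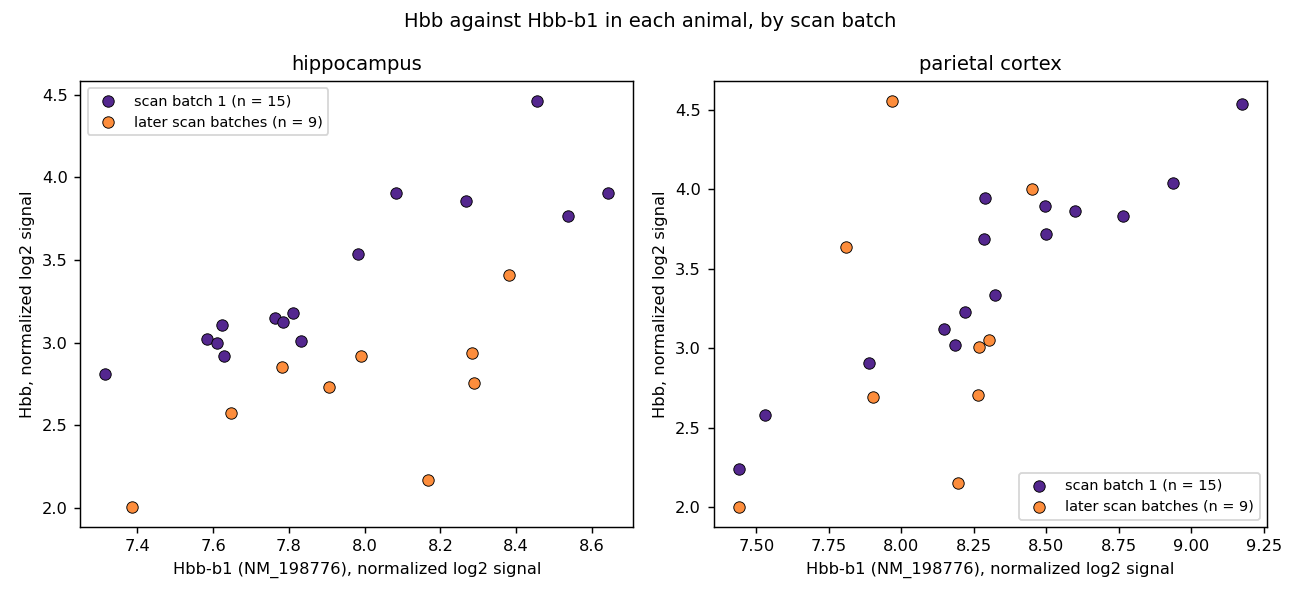
Hbb (y axis) against Hbb-b1, NM_198776 probe (x axis), in normalised log2 signal for each of the 24 rats, hippocampus left and cortex right, coloured by scan date. The 15 rats of the first date lie along a line (r = 0.89 and 0.94), and the 9 later rats scatter, below that line in the hippocampus and on both sides of it in the cortex (r = 0.62 and 0.28).

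The spread of the members within groups was above that of most probes. The within-group SD of Hbb was 0.56 in the hippocampus and 0.69 in the cortex, larger than that of 85.4% and 85.6% of tested probes, whose median SD was 0.26 and 0.35. For Alas2 the SD was 0.39 and 0.60 (72.9% and 80.7%), for Hbb-b1 (NM_198776) 0.36 and 0.45 (68.7% and 66.7%) and for Hbe2 0.36 and 0.50 (69.6% and 72.6%). On technical repeats, leaving out the cortex repeat that did not match its animal, Hbb differed from the first array by -0.31 to 0.03 and Hbb-b1 (NM_198776) by -0.15 to 0.27 (6 repeats of 3 rats). On the same repeats Hbe2 differed by 0.05 to 0.16, Alas2 by -0.17 to 0.55 and Hbg1 by -0.66 to 0.49. The largest Alas2 and Hbg1 values were from the hippocampus of Y_Sham 3.

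Markers of blood and vessel cells were set beside Hbb. Of the 13 erythrocyte markers listed, 10 were found and 7 were well above background in most animals of each region, while Epb42, Gata1 and Rhag were not. The mean of that list ran from -1.20 to -0.44 over animals in the hippocampus and from -1.29 to 0.01 in the cortex. Its correlation with Hbb was 0.22 in the hippocampus (rho 0.06, adjusted permutation p = 0.495) and 0.05 in the cortex (rho 0.12, adjusted permutation p = 0.968), and -0.11 and 0.06 without the 2 farthest rats. Within the first scan date this r was 0.38 in the hippocampus and 0.14 in the cortex, and among later rats 0.59 and -0.25. Leukocyte and platelet markers, of which 9 of 10 in the hippocampus and 8 of 10 in the cortex were well above background in most animals, had r = 0.57 with Hbb in the hippocampus (rho 0.53, adjusted permutation p = 0.0090) and 0.47 in the cortex (rho 0.44, adjusted permutation p = 0.051). Without the 2 farthest rats these were 0.39 (permutation p = 0.077) and 0.56, and within the first scan date they were 0.49 and 0.79, and among later rats 0.45 and -0.14. Endothelial and mural markers gave -0.03 and 0.34 (rho -0.13 and 0.43), and choroid plexus markers -0.06 and 0.01 (rho -0.22 and 0.05), all with an adjusted permutation p above 0.05. In the cortex the endothelial value was 0.67 within the first scan date and 0.06 among later rats, and the choroid plexus value 0.54 and -0.34. In the hippocampus the endothelial value was 0.21 and -0.16, and the choroid plexus value 0.06 and 0.64. Group means of the erythrocyte list lay between -1.01 in Y_iTBS and -0.78 in AU_Sham in the hippocampus, and between -0.96 in AU_iTBS and -0.63 in AI_iTBS in the cortex. The part of red or white blood cells in the members' levels was not tested. The neuron, astrocyte, oligodendrocyte and microglia markers were all well above background in most animals.

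Among genes outside the set, the 5 closest to Hbb in the hippocampus (Pearson r over 24 rats, group means removed, all 32503 tested probes ranked) were Hba-a1 at 0.87, Tmsb10 at 0.86, Mrpl55 at 0.83, Mrpl53 at 0.82 and Rn7sl1 at 0.81. Hba-a1 encodes an adult alpha chain, the partner of the beta chain, Tmsb10 encodes an actin-binding thymosin, and Mrpl55 and Mrpl53 encode proteins of the mitochondrial ribosome. In the cortex they were Gng5 at 0.85, Nes at 0.83, Gpx4 at 0.83, Aldh2 at 0.80 and Aldh9a1 at 0.80. No gene was among the closest in both regions. The genes were picked for the highest r among named genes, and their r within scan dates is not given here. Without removing group means, r in the hippocampus was 0.89, 0.85, 0.75, 0.74 and 0.77 in the order named. In the cortex it was 0.52 for Gng5, 0.69 for Nes, 0.61 for Gpx4, 0.63 for Aldh2 and 0.71 for Aldh9a1. With group means removed Alas2 had r = 0.73 and 0.70 with Hbb, above 99.2% and 99.7% of probes, and Hbb-b1 (NM_198776) had 0.51 and 0.71, above 91.2% and 99.8%.

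Other globin genes were taken from a list of 16, of which 8 were tested. None passed in limma in any comparison of iTBS with sham, and the median difference in aged rats was -0.21 in the hippocampus and -0.13 in the cortex. In the hippocampus of aged rats 2 of 8 had an unadjusted p under 0.05, beside 2.48% of all probes. They were Hbz, an embryonic alpha-type gene, at -0.39 (limma adjusted p = 0.978) and Hba-a1 at -0.44 (limma adjusted p = 0.978). Both had all 8 iTBS rats below the sham mean. Between regions of sham rats 3 of 8 passed as higher in the hippocampus and 3 as lower, in the fit without the slide where 35.9% of all probes passed. Lower were Hba-a1 at -0.33, Hbb-bs at -0.44 and cytoglobin, Cygb, a globin of fibroblasts and other non-blood cells, at -0.59 (lower in 12 of 12 rats). Higher were neuroglobin, Ngb, at 0.39, myoglobin, Mb, at 0.43 and Hbz at 0.47.

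A list of haem synthesis and mitochondrial transport genes had 18 tested members besides Alas2. None passed for iTBS against sham in limma. An unadjusted p under 0.05 was seen for 0 of 18 in aged rats in either region, beside 2.48% and 2.92% of all probes. In the cortex of young rats it was seen for 2 of 18, beside 2.7% of all probes. The median difference in aged rats was 0.01 in the hippocampus and -0.01 in the cortex. The coproporphyrinogen oxidase gene Cpox was 0.84 lower in the cortex of stimulated than of sham young rats, from 1.75 to 0.90, with 4 of 4 iTBS rats below the sham mean, an unadjusted limma p of 7.8e-04 and an adjusted p of 1.00. Alas1, the housekeeping form of the enzyme, had the smallest p in aged cortex at -0.32 (limma adjusted p = 1.00). Between regions of sham rats 4 of 18 passed as higher in the hippocampus and 1 as lower, in the fit without the slide where 35.9% of all probes passed. Higher were Cpox at 0.33, Uros at 0.56, Fam210b at 0.31 and Clpx at 0.25. Abcb10, a mitochondrial inner membrane transporter, was lower at -0.30. Of 10 tested genes of haem degradation, export and scavenging, 13 of iron handling and 17 of erythroid transcription and hypoxia response, none passed for iTBS against sham in young or aged rats in either region. In aged rats 1, 0 and 0 of them had an unadjusted limma p under 0.05 in the hippocampus, beside 2.48% of all probes. In the cortex the counts were 0, 0 and 2, beside 2.92% of all probes. The median differences of these 3 lists in aged rats were -0.03, 0.03 and -0.01 in the hippocampus and -0.13, -0.11 and -0.06 in the cortex.

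Between the regions of sham rats 4 of the 10, 4 of the 13 and 6 of the 17 genes passed in that same fit, shares near the 35.9% of all probes. Hmox1, the inducible haem oxygenase, passed as higher in the hippocampus, by 0.64 in 12 of 12 rats, and Hmox2, the constitutive form, and the biliverdin reductase gene Blvra passed as lower, at -0.27 and -0.61. Of the iron genes 4 of 13 passed as higher, Tf, which encodes transferrin, by 0.57, Steap3 by 0.44, Ireb2 by 0.32 and Hamp, the hepcidin gene, by 0.33. Of the erythroid and hypoxia genes the erythropoietin receptor gene Epor was higher by 1.03 and the transcription cofactor gene Lmo2 by 1.45, each in 12 of 12 rats. The hypoxia response genes Pdk1, Vegfa and Bnip3 passed as lower, at -0.70, -0.47 and -0.37, as did Bcl11a, a repressor of embryonic-type globin genes, at -0.35.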

How the data were processed

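Per the file headers, the intensity values are spot signals that Agilent Feature Extraction 12.0.3.1 made from 1-colour (Cy3) scans, and the processed signal is background-subtracted. A further table deposited by the authors holds a score for each probe, each array's log2 processed signal centred on its mean and divided by its SD, and these score values differed from a recalculation by at most 0.005. Here the same z-score was taken over 45598 non-control probes per array, spots of a probe averaged, and multiplied by the mean array SD of 4.08. Probes well above background in at least 3 of 24 animals of a region were tested with limma 3.58.1 (R 4.3.3, lmFit and eBayes, 6 groups in a fit, Benjamini-Hochberg over all probes, called at an adjusted p under 0.05). The aged comparison is the mean of the AU and AI comparisons. Regions were compared as differences within animals. Correlations were computed in Python 3.11.15 over 33 planned relations and 10 with array quality, which were added after seeing the data. The fit was tested on simulated data. Alternatives covered scaling, background correction (normexp on the median spot signal, offset 50), filter, repeats, scan date, slide, a selection rule written after the methods and leaving out each rat. The slide as a block in the region difference was added after seeing the data. Columns of unknown sample numbered 0. RefSeq named 46.3% of probes. Named genes are all members, at most 6 called genes of a list or otherwise at most 2 with the smallest p, and the 5 genes most like Hbb in each region. The members and lists were chosen with earlier results of these data known. Probe sequences were not used here.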

Additional observations from a re-analysis of the deposited data

Results flagged for a closer look

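In 2 of 60 groups of 4 or 5 animals, 1 animal lay far from the rest of its group (Dixon's test at its 95% critical value). Chance flags about 1 in 20 groups. Both were Hbg1 in the hippocampus, the probe nearest to background. AI_Sham 3 read -1.85 while the other 3 rats of its group lay between -2.76 and -2.68. AU_Sham 2 read -1.66 while the others lay between -2.56 and -2.47.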

How the results depend on the processing

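No iTBS or sham comparison gained a called member under any alternative that was run. The number of member probes called between regions of sham rats, 5, was 3 with 75th percentile scaling, quantile normalization, normexp background, scan date as a block, or a replicate block, 3 within the first scan date, 0 within later dates, 1 with the slide as a random block in a fit of both regions and 1 with the regions as independent samples (no replicate block), and 3 to 5 when single rats were left out. Over all rats, 5 became 3 with normexp, 0 within later dates, 1 with the slide as a random block and 2 with independent regions. The slide as a fixed block could not be fitted to both regions. Replicate numbers did not pair the rats, since only 18 of 55 same-numbered pairs in the hippocampus and 25 of 55 in the cortex correlated above 0.1, and the block left the member calls for iTBS at 0. Between regions r of Hbe2 was 0.41 without the 2 farthest rats, that of Hbb 0.42 with group means removed (0.26 to 0.50 leaving out single rats), and that of Hbg1 -0.48 with 75th percentile scaling, 0.076 without the 2 farthest rats and -0.29 to 0.0010 leaving out single rats, highest without AI_Sham 3.

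Signs turned for values that had not passed a test and for Hbg1 between regions (-0.061 within later dates). With slide as a fixed block the AU hippocampus differences for iTBS were 0.18 (Hbb-b1, XM_006229913), 0.21 (Hbb-b1, NM_198776), 0.18 (Hbe2) and 0.54 (Hbb), and the young cortex differences 0.042, 0.079 and 0.051 for the Hbb-b1 probes and Hbe2. With slide as a random block the AU hippocampus gave 0.0095 (Hbb-b1, NM_198776), 0.055 (Hbe2) and 0.15 (Hbb), and with scan date as a block 0.027 (Hbb). Within later dates, where most groups held a single rat, iTBS differences were -0.011 (Hbb-b1, XM_006229913, young hippocampus), 0.050 (Hbb-b1, NM_198776, young cortex), 0.039 (Hbb, aged hippocampus), 0.73 (Hbb, AU hippocampus), 0.062 (Alas2, AI hippocampus) and 0.16 (Hbe2, AI cortex). Within the first date Hbb in young cortex was -0.22, and aged minus young sham cortex was -0.15 and -0.10 for the Hbb-b1 probes, -0.17 for Hbe2 and -0.43 for Alas2. The correlation of Hbb with marker lists turned without the 2 farthest rats in the hippocampus (erythrocyte -0.11, endothelial 0.068), within the first date in the hippocampus (endothelial 0.21, choroid plexus 0.056), within later dates (choroid plexus 0.64 in the hippocampus, and erythrocyte -0.25, leukocyte -0.14 and choroid plexus -0.34 in the cortex) and with group means removed (choroid plexus in the cortex, -0.084). The cause was not tested.

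Leaving out single rats turned iTBS in AU hippocampus for Hbb-b1 (XM_006229913, -0.36 to 0.010, and NM_198776, -0.25 to 0.035) and Hbb (-0.52 to 0.24), each without AU_Sham 4, and for Hbe2 (-0.15 to 0.087) without AU_Sham 1, AU_Sham 4 or AU_iTBS 4. It turned iTBS in young cortex for Hbb-b1 (-0.43 to 0.088 and -0.35 to 0.15) and Hbe2 (-0.47 to 0.041) without Y_Sham 3, and for Hbb (-0.20 to 0.48) without Y_Sham 2 or Y_iTBS 2. It turned aged minus young sham cortex for Hbb-b1 (-0.042 to 0.47 and -0.023 to 0.48), Hbe2 (-0.085 to 0.42) and Alas2 (-0.17 to 0.50) without Y_Sham 2. Signal near background limits what can be said of Hbg1.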

Other observations

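Hba-a3, an alpha-type globin gene outside the set, was not well above background in the same 3 rats in both regions, AU_Sham 4, AU_iTBS 5 and AI_Sham 4. These read -5.29 to -5.05 in the hippocampus and -5.13 to -4.81 in the cortex. The other 21 rats read -1.22 to 1.82 in the hippocampus and -0.80 to 2.02 in the cortex, with no animal between. AU_Sham 4 had the highest hippocampal Hbb, 4.46, and AI_Sham 4 the highest cortical Hbb-b1 (NM_198776), 9.17. AU_iTBS 5 read 3.18 and 8.29 on these measures, beside medians of 3.02 and 8.27 over all rats.

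The hippocampus array whose labels disagree on its group, young sham in one and aged unimpaired iTBS in others, read 7.55 for Hbb-b1 (NM_198776), 6.97 for Hbb-b1 (XM_006229913), 6.08 for Hbe2, 3.05 for Hbb, 1.14 for Alas2 and -2.64 for Hbg1. Over the 500 tested probes that varied most its closest animal was AU_iTBS 4, at r = 0.43, and it was used in no comparison.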
